A study of Astyanax mexicanus with 14 samples.

Results

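Surface larvae of the Mexican tetra (Astyanax mexicanus) exposed to UV-B light were compared with surface larvae given white light. All 8 surface libraries of the 14 libraries in the series entered, chosen by the genotype and treatment in their labels, and no cave library entered the test. The other 6 libraries, from Pachón cave larvae of the same age and treatments, entered only the comparison of responses and an alternative fit. The 4 surface control and 4 surface UV-B libraries were each made from the whole bodies of 4 pooled larvae at 6 days post-fertilization. Both groups were the river-dwelling surface form, with no transgene or mutation named, and differed in 60 s of UV-B or a white light control followed by collection 90 min later. The pooled larvae of a library cannot be separated, and a whole body mixes every tissue. The question was which genes had changed in sighted surface fish at a time soon after UV-B.

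UV-B forms cyclobutane pyrimidine dimers and other lesions between neighbouring bases in DNA. In vertebrates the lesions and the accompanying stress to proteins, membranes and ribosomes activate kinase cascades that induce immediate early genes within minutes, chiefly those for the AP-1 transcription factor, whose Fos and Jun subunits bind DNA as pairs. Damaged cells also raise cell cycle inhibitors such as p21. Fish remove dimers with nucleotide excision repair, which begins with damage recognition by factors such as DDB2, and with photolyases, enzymes that reverse the lesion with the energy of visible light.

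Total counts ran from 7.89 to 15.3 M (mega-counts) in surface controls and from 8.56 to 10.2 M in surface UV-B libraries, with no detected difference (exact permutation test, two-sided, p = 0.371, n = 4 in each group). A count of 0 allows up to 3 counts, which came to between 0.197 and 0.380 counts per mega-count (CPM) before scaling, and this limit covers counting error only. The 500 most abundant genes took 46.2% to 48.6% of the counts in controls and 50.6% to 53.1% after UV-B, so the groups did not overlap (exact permutation p = 0.0286, the smallest that 4 against 4 libraries allow, and 0.0349 after Benjamini-Hochberg adjustment over the 11 library measures tested). Fewer genes had a count after UV-B (17257 to 17407) than in controls (17426 to 17761), at the same exact permutation p of 0.0286. Depth was not matched for this, and in controls the number rose with total counts. Surface control 1, with the lowest total of all (7.89 M), had 17426, and the effect of depth was not tested. Levels below are normalised CPM, counts scaled with the TMM factors of edgeR, and they compare the same gene between libraries, since no gene lengths entered.

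The response was broad. Of 15523 genes tested, 4464 (28.8%) passed an adjusted p of 0.05 (quasi-likelihood test of edgeR, Benjamini-Hochberg adjustment) and are called here, 2072 of them higher (13.3%) and 2392 lower after UV-B (15.4%). The 4 control and 4 UV-B libraries did not overlap for 1985 genes that were higher (12.8%) and 2352 that were lower after UV-B (15.2%), called or not. The direction split depended on scaling. TMM placed the median log2 fold change of all genes at 0.00, whereas scaling to library totals placed it at -0.18 and gave 800 genes higher and 4174 lower, so that 83.9% of the calls were lower in place of 53.6%. Changes below are therefore relative to the middle gene.

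Induced and repressed genes differed in level and in size of change. The calls that were higher had a median log2 fold change of 0.46. Their normalised CPM summed to 36.3% of the nominal CPM total in controls and 49.5% after UV-B. Those that were lower had a median of -0.66 and went from 9.13% to 6.21% of that total. TMM factors ran from 1.03 to 1.09 in controls and from 0.918 to 0.984 after UV-B. Normalised CPM of a library therefore add up to less than the nominal total in controls and to more after UV-B. These percentages are thus not shares of the counts, and scaling is part of their change. Large changes leaned to the lower side, with 542 lower and 186 higher genes called at 2-fold or more. At 8-fold or more there were 5 higher and 3 lower. When genes were ranked by mean CPM and divided into 4 bins of equal size, the lowest bin held 129 genes called higher and 483 called lower, and the highest bin held 1094 and 482. Fold changes and calls came from the same libraries as the ranking, so this order is a description.

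**Figure D1:**
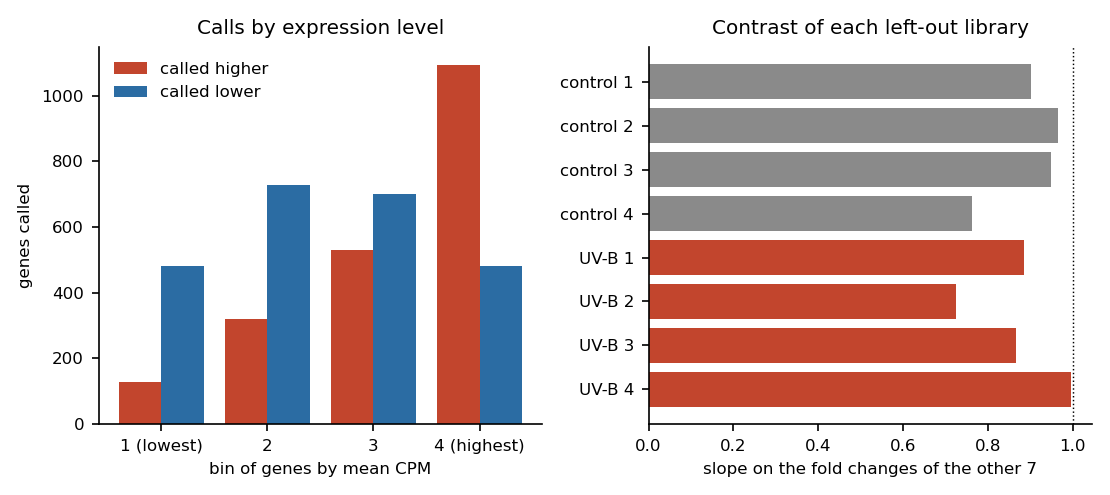
Left, number of genes called higher (red) and lower (blue) in each of 4 bins of the genes tested, ranked by mean CPM; calls higher after UV-B went from 129 in the lowest bin to 1094 in the highest. Right, for each library left out in turn, the slope of its own log2 contrast on the fold changes of the other 7 libraries, over genes called in those 7, with controls in grey and UV-B libraries in red; slopes ran from 0.72 to 1.00, and the dotted line marks 1.

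Each library was compared with the opposite group after it was left out of the fit. Over the genes called in the other 7 libraries, the left-out library differed from the opposite group in the called direction for 94.7% to 99.5% of genes. The slope of its differences on the fitted fold changes was 0.90, 0.97, 0.95 and 0.76 for surface controls 1 to 4 and 0.89, 0.72, 0.87 and 1.00 for surface UV-B libraries 1 to 4. Surface control 4 and surface UV-B 2 therefore had the smallest contrasts, and each had the highest total count of its group. The opposite group's mean is shared with the fit, so neither the shares of genes in the called direction nor these slopes are independent of it. Leaving out both libraries together, an alternative added after their values were seen, gave 4778 calls. Since they were picked for their small contrasts, this alternative favours larger differences by construction and supports no call.

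Gene symbols came from the study's supplementary gene tables and methods, which pair 2078 identifiers with a symbol, 2073 of them among the genes tested. The tables were available in part and ordered by the study's own significance in these libraries. Of 1744 tested genes named from its surface table, 99.5% were called here, 39.2% higher and 60.3% lower. Of 328 named from its cave table alone, 52.4% were called, 29% higher and 23.5% lower, and of 13450 genes with no name, 19% were called, 9.61% higher and 9.4% lower. A named gene was thus nearly always a called gene by the way it got its name, and the counts over gene lists below describe which way named genes of a kind changed. They are not independent evidence that a pathway responded, and each count is to be read against these shares. Members with no identifier were not analysed here. Such members included 11 of 21 DNA repair, 10 of 23 growth arrest, 8 of 16 circadian clock and 6 of 15 AP-1 symbols. They also included 9 of 28 other early response, 7 of 21 heat shock, 6 of 18 glycolysis and 6 of 25 integrated stress response symbols. The lists of ribosomal proteins, translation factors, oxidative phosphorylation, receptor tyrosine kinases, neuropilins with plexins and semaphorins, and epidermis hold only symbols that those tables gave, so their uniform directions leave out genes of these kinds outside the tables. Nearly the same holds for phototransduction, muscle and limb progenitor factors, TGF-beta and BMP, Wnt, lipid metabolism and TRiC, each with 1 symbol outside the tables. A gene in more than 1 list is counted in each.

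**Figure D2:**
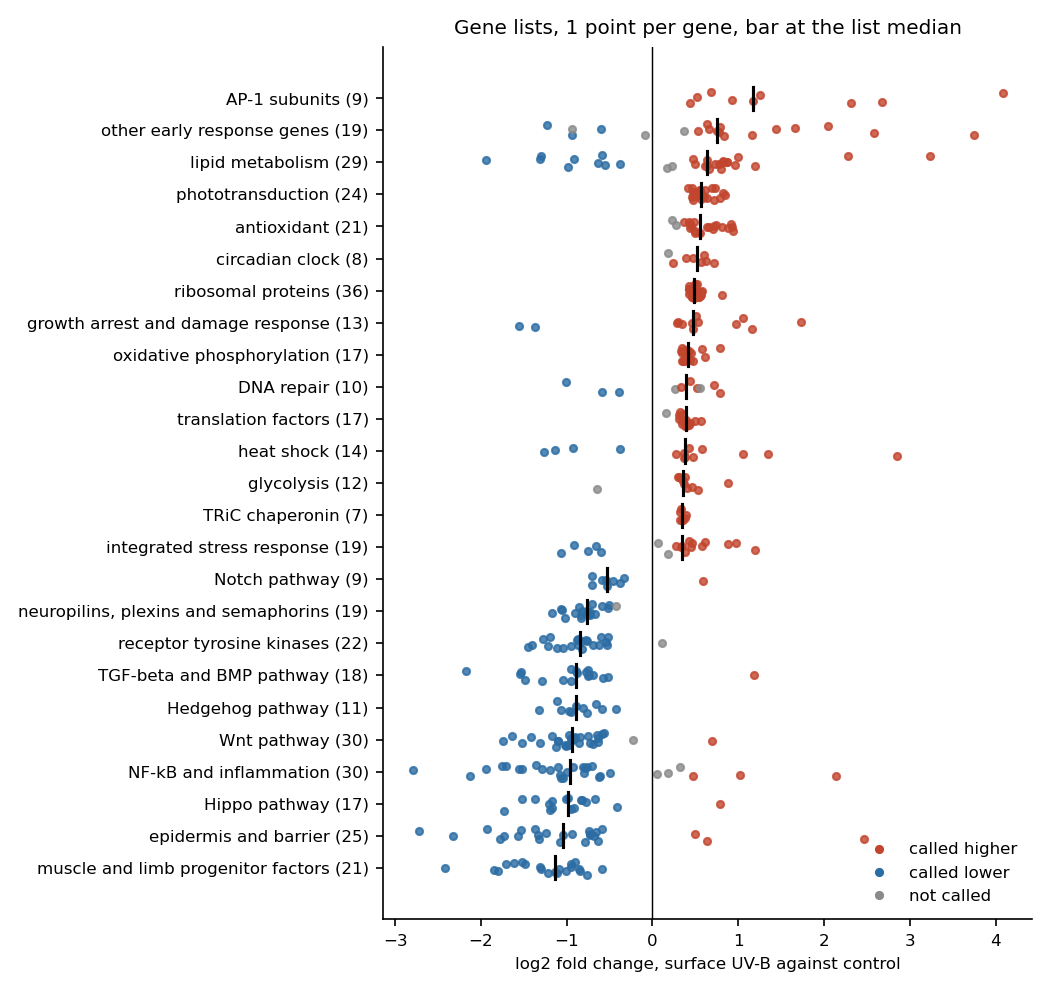
Log2 fold change of each tested member of 25 gene lists, surface UV-B against control, with the number of genes in parentheses, the list median as a black bar, and points in red for genes called higher, blue for called lower and grey for not called. AP-1 subunits, with a median of 1.17, stand at the top, and muscle and limb progenitor factors, with a median of -1.14, at the bottom.

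Immediate early genes were among the genes with the highest fold changes. All 9 AP-1 subunits with an identifier rose, with a median log2 fold change of 1.17 against 0.00 over all genes tested. The share called higher was 13.3% of all genes tested and 39.2% of genes named from the study's surface table. The Fos family gene fosl1a (ENSAMXG00000037420) had 1.08, 1.42, 1.30 and 1.40 normalised CPM in surface controls 1 to 4 and 19.6, 22.1, 28.2 and 19.7 in surface UV-B libraries 1 to 4. No UV-B library came within 10-fold of a control library, and the change had the highest log2 value of any gene that met the naming rule (log2 fold change 4.08, SE 0.20, adjusted p = 1.19e-09). Another Fos gene, fosab (ENSAMXG00000013765), had 12.6, 9.94, 18.9 and 16.1 normalised CPM in surface controls 1 to 4 and 96.0, 106, 93.1 and 79.2 in surface UV-B libraries 1 to 4 (log2 fold change 2.68, SE 0.15, adjusted p = 4.96e-09). For junbb (ENSAMXG00000034822), a Jun subunit, the levels were 61.9, 41.3, 63.4 and 56.5 normalised CPM in surface controls 1 to 4 and 271, 285, 281 and 277 in surface UV-B libraries 1 to 4 (log2 fold change 2.32, SE 0.11, adjusted p = 1.19e-09). The UV-B libraries of junbb lay close together, and those of fosab did not overlap its controls. The Jun genes junba and jund rose by log2 fold changes of 1.25 and 1.17, and fosaa, fosl2, jdp2b and maff by 0.69, 0.44, 0.93 and 0.51. When counts were scaled to library totals, 6 of the 9 were called, and fosl2, jdp2b and maff were not. The call of fosl2 was also lost with all 14 libraries in the fit (adjusted p = 0.0506). That of jdp2b was also lost without surface control 2 or 4, without surface UV-B 2, and without surface control 4 and surface UV-B 2 together, with adjusted p-values up to 0.123.

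Other early response genes rose in 13 of 19 cases, fell in 3 and were not called in 3, with a median of 0.75. Called higher were 13.3% of all genes tested and 39.2% of those named from the surface table. EGR2 (ENSAMXG00000012752), a zinc finger factor, had 0.838, 1.32, 0.686 and 1.65 normalised CPM in surface controls 1 to 4 and 9.68, 11.97, 27.9 and 12.9 in surface UV-B libraries 1 to 4 (log2 fold change 3.75, SE 0.36, adjusted p = 2.38e-06). Its UV-B libraries spread widely, with library 3 far above the other 3, and all 4 stood above every control. The bZIP factor gene cebpb (ENSAMXG00000018723) had 34.2, 31.5, 42.0 and 22.2 normalised CPM in surface controls 1 to 4 and 189, 199, 200.2 and 191 in surface UV-B libraries 1 to 4 (log2 fold change 2.59, SE 0.14, adjusted p = 2.97e-09). Both cebpb and ier2a, an immediate early gene, kept their groups well apart. Levels of ier2a were 13.9, 11.97, 17.6 and 16.9 normalised CPM in surface controls 1 to 4 and 63.1, 66.3, 65.9 and 56.2 in surface UV-B libraries 1 to 4 (log2 fold change 2.04, SE 0.12, adjusted p = 9.42e-09). The related ier5 rose by 1.66, and zfp36l1b, which encodes a protein that promotes decay of AU-rich mRNA, by 1.44. Increases were smaller for dusp1, a phosphatase that switches off MAP kinases (0.83), ccn1, which encodes a secreted matrix protein (0.78), and egr1 (0.53). The 3 that fell were the nuclear receptor genes nr4a3 (log2 fold change -1.23, SE 0.14, adjusted p = 1.04e-05) and NR4A1 (-0.60) and the MAP kinase phosphatase gene dusp16, although nr4a3 and NR4A1 are known as immediate early genes in other settings.

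**Figure D3:**
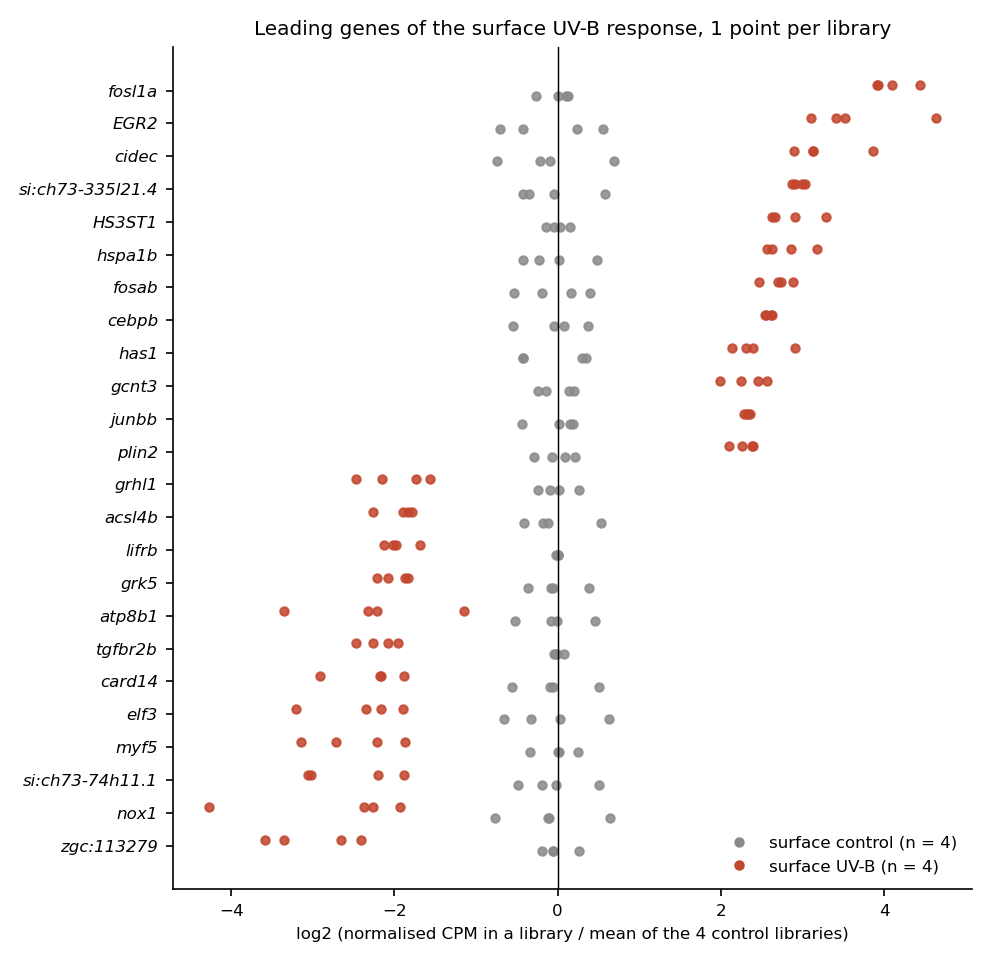
Log2 ratio of normalised CPM in each library to the mean of the 4 surface controls, for the 12 genes with the highest and the 12 with the lowest log2 fold changes under the naming rule, with controls in grey and UV-B libraries in red. The rule required groups that do not overlap, and the UV-B points of EGR2, nox1 and atp8b1 spread the most visibly.

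Genes of growth arrest and the damage response rose, whereas the transcription factor genes tp73 and tp63 fell. Of 13 genes, 11 rose and 2 fell (median 0.48), where 13.3% of all genes tested and 39.2% of surface table genes were called higher. The cell cycle inhibitor gene cdkn1a (ENSAMXG00000034881), which encodes p21, had 20.3, 16.1, 15.8 and 18.7 normalised CPM in surface controls 1 to 4 and 68.9, 47.0, 67.0 and 51.6 in surface UV-B libraries 1 to 4 (log2 fold change 1.73, SE 0.14, adjusted p = 2.61e-07). Every UV-B library exceeded every control more than 2-fold. The antiproliferative gene btg2 (ENSAMXG00000033529) had 214, 215, 217 and 247 normalised CPM in surface controls 1 to 4 and 511, 485, 479 and 519 in surface UV-B libraries 1 to 4 (log2 fold change 1.16, SE 0.08, adjusted p = 7.02e-08), with control 4 above the other controls. Increases were also called for rps27l (1.06), the stress sensor gene sesn2 (0.98), gadd45ba (0.53) and the cyclin gene ccng1 (0.30). For tp73 (ENSAMXG00000036294) the levels were 13.3, 14.1, 11.2 and 9.08 normalised CPM in surface controls 1 to 4 and 4.78, 3.29, 4.97 and 3.18 in surface UV-B libraries 1 to 4 (log2 fold change -1.55, SE 0.21, adjusted p = 8.15e-05), and for tp63, a factor of basal epidermis, the log2 fold change was -1.36 (adjusted p = 0.000165). The count of 11 fell to 7 without surface UV-B 3 or without surface control 3, and to 5 with library totals, where ccng1 had a value of 0.12 and was not called.

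DNA repair genes moved in both directions. Of the 10 with an identifier, 5 rose, 3 fell and 2 were not called (median 0.39). The photolyase gene cpdp (ENSAMXG00000001885) had 62.3, 63.9, 64.2 and 63.7 normalised CPM in surface controls 1 to 4 and 102, 77.9, 94.1 and 90.5 in surface UV-B libraries 1 to 4 (log2 fold change 0.52, SE 0.09, adjusted p = 0.000552). Its controls spanned less than 2 CPM, and each UV-B library stood above them. Levels of ddb2 (ENSAMXG00000000525), the damage recognition gene, were 39.5, 41.9, 41.3 and 47.7 normalised CPM in surface controls 1 to 4 and 51.5, 40.3, 69.1 and 43.6 in surface UV-B libraries 1 to 4 (log2 fold change 0.26, SE 0.14, adjusted p = 0.177), and the groups overlapped. It passed the threshold only with surface control 4 and surface UV-B 2 left out together, the pair picked for small contrasts (0.42, adjusted p = 0.0263), and over the 17 alternatives its adjusted p ran from 0.0263 to 0.701. Increases were called for ube2al (0.79) and ube2b (0.44), which encode ubiquitin-conjugating enzymes known from post-replication repair in yeast, for the exonuclease gene exo5 (0.71) and for mcm7 (0.34), a subunit of the replicative helicase. The crosslink repair gene fancc fell by 1.01 on the log2 scale (adjusted p = 0.00123), and uvrag (-0.58) and slf2 (-0.39) were lower too. With library totals 3 of the 5 increases were called, and ube2b and mcm7 were not. The call of slf2 was lost without surface UV-B 4 (-0.33, adjusted p = 0.0542).

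**Figure D4:**
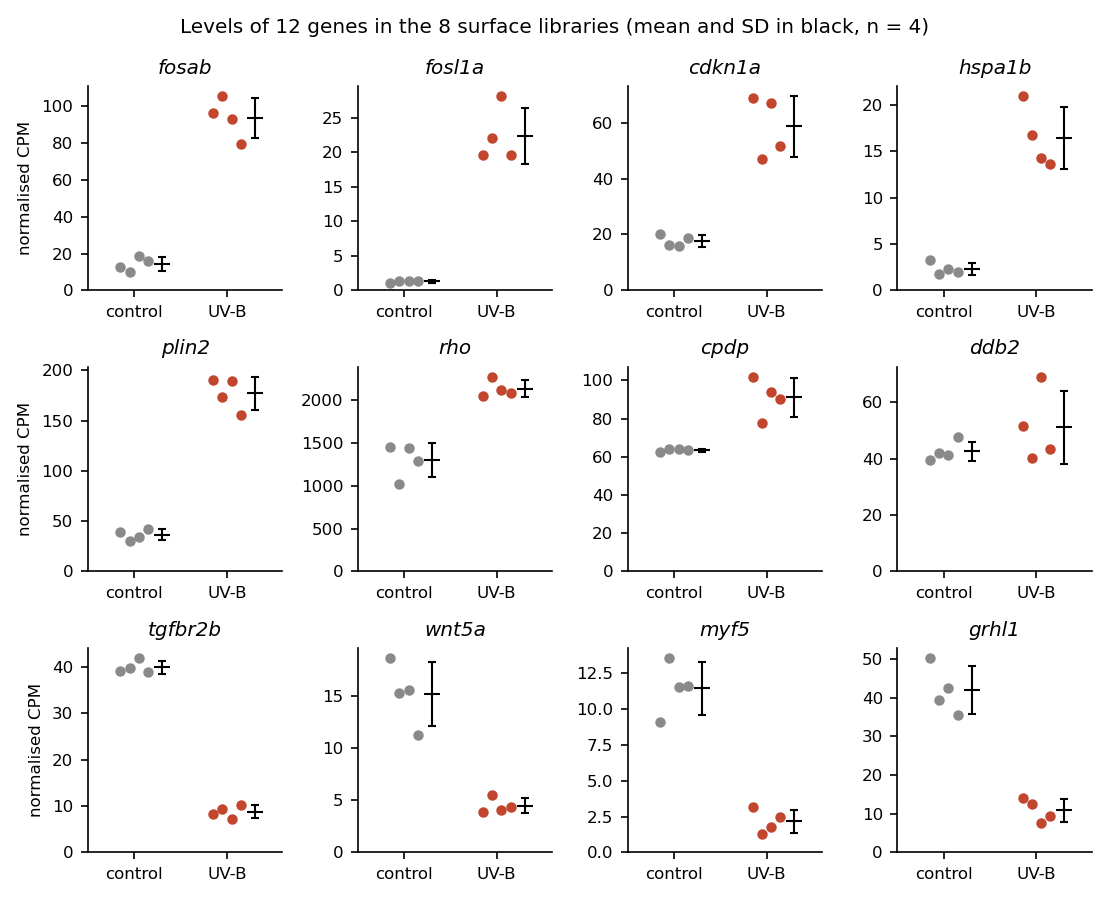
Normalised CPM of 12 genes in surface control (grey) and surface UV-B (red) libraries, 1 point per library, with the mean and SD of 4 libraries in black and each vertical axis starting at 0. Among the 12, the groups overlap for ddb2 alone, where UV-B libraries 2 and 4, at 40.3 and 43.6 CPM, lie within the control range.

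Most heat shock genes were higher after UV-B. Of 14 listed, 10 rose and 4 fell (median 0.38), where 13.3% of all genes tested and 39.2% of surface table genes were called higher. The inducible Hsp70 gene hspa1b (ENSAMXG00000026104) had 3.23, 1.72, 2.33 and 1.97 normalised CPM in surface controls 1 to 4 and 21.0, 16.8, 14.3 and 13.7 in surface UV-B libraries 1 to 4 (log2 fold change 2.85, SE 0.22, adjusted p = 2.14e-07). The small heat shock protein gene hspb11 (ENSAMXG00000025376) had 38.2, 26.0, 23.7 and 34.3 normalised CPM in surface controls 1 to 4 and 69.0, 73.6, 81.3 and 85.1 in surface UV-B libraries 1 to 4 (log2 fold change 1.35, SE 0.13, adjusted p = 3.42e-06). Neither gene's groups overlapped. Rises were smaller for hspb9 (1.06), for the constitutive hspa8 (4903 ± 257 to 6399 ± 397 CPM, 0.38) and for hsp90ab1 (0.28). Both copies of the collagen chaperone gene fell, serpinh1a by 1.26 and serpinh1b by 0.92 on the log2 scale. With library totals 5 of the 10 increases were called. The increase of hsp90ab1 was not called there, nor without surface control 3 (adjusted p = 0.0507).

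The integrated stress response slows general translation and raises the transcription factor ATF4 and its targets. Of 19 genes listed for it, 12 rose, 5 fell and 2 were not called (median 0.34). Higher calls were 13.3% of all genes tested and 39.2% of genes named from the surface table. The target gene chac1 (ENSAMXG00000031242), which encodes a glutathione-degrading enzyme, had 174, 149.6, 161 and 210.3 normalised CPM in surface controls 1 to 4 and 421, 412, 391 and 369.8 in surface UV-B libraries 1 to 4 (log2 fold change 1.20, SE 0.10, adjusted p = 6.15e-07). No library of chac1 overlapped the other group. Transcripts of atf4a itself went from 546 ± 29.0 to 835 ± 50.1 CPM (SD, n = 4 each, log2 fold change 0.61, SE 0.08, adjusted p = 6.11e-05), atf5b rose by 0.88 and ddit3, which encodes CHOP, by 0.57. The call of trib3, a feedback inhibitor, at 0.46, was lost with library totals, with the replicate block and without any of 6 single libraries (each control but 2, each UV-B library but 2), with adjusted p-values up to 0.181. The amino acid transporter gene slc7a1a fell (log2 fold change -1.07, SE 0.13, adjusted p = 3.16e-05). With library totals 6 of the 12 increases were called.

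Genes of the NF-kB pathway and of inflammation were mostly lower. Of 30, 24 fell, 3 rose and 3 were not called (median -0.96). The share called lower was 15.4% of all genes tested and 60.3% of genes named from the study's surface table. Levels of lifrb (ENSAMXG00000032048), a receptor gene for cytokines of the LIF family, were 42.5, 42.6, 42.2 and 41.8 normalised CPM in surface controls 1 to 4 and 10.7, 13.2, 10.4 and 9.67 in surface UV-B libraries 1 to 4 (log2 fold change -1.94, SE 0.12, adjusted p = 9.81e-09). Its controls agreed to within 1 CPM, and every UV-B library was more than 3-fold lower. The regulator gene tnip2 (ENSAMXG00000017148) had 2.75, 3.65, 2.54 and 1.84 normalised CPM in surface controls 1 to 4 and 0.377, 0.698, 0.249 and 0.118 in surface UV-B libraries 1 to 4 (log2 fold change -2.79, SE 0.46, adjusted p = 0.000390), and UV-B libraries 3 and 4 were below what 3 counts amount to. The NF-kB subunits rel and nfkb2 fell by 1.35 and 0.81 on the log2 scale, the nuclear cofactors bcl3 and nfkbiz by 1.71 and 0.99, and stat3, a cytokine signalling factor, by 0.61. Receptor genes cxcr4a (-2.12) and tnfrsf11a (-1.76) and the chemokine gene ccl20b (-1.20) were lower as well. The 3 increases were those of the cytokine genes il11a and il1b and of the adaptor gene myd88 (0.48). For il11a (ENSAMXG00000039587) the levels were 0.957, 0.507, 0.343 and 0.381 normalised CPM in surface controls 1 to 4 and 1.76, 3.39, 1.49 and 2.36 in surface UV-B libraries 1 to 4 (log2 fold change 2.14, SE 0.44, adjusted p = 0.00187). Its levels were low, and the groups did not overlap. One il1b copy (ENSAMXG00000035729) went from 34.3 ± 9.37 to 69.4 ± 11.7 CPM (SD, n = 4 each, log2 fold change 1.02, SE 0.16, adjusted p = 0.000282), and the other (ENSAMXG00000031873) had a value of 0.32 that was not called (adjusted p = 0.478). Reads that fit both copies may have been divided or lost in counting. The myd88 call was lost with library totals (adjusted p = 0.105).

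Immune marker transcripts were lower in the same libraries. In these whole larvae the summed level of 5 leucocyte markers ran from 28.1 to 40.2 CPM in controls and from 12.5 to 17.4 CPM after UV-B, and all 5 were called lower (log2 fold changes from -3.04 to -0.76). The lowest of the 5 averaged 1.13 CPM over both groups. In bulk samples, fewer cells of a type and less RNA per cell cannot be told apart, here and for the tissue markers below. All these markers carry symbols from the study's tables, so naming made a call likely for each. Their calls and sums are descriptions and not independent evidence of a change in a tissue. The markers' part in the lower NF-kB and cytokine transcripts was not tested.

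Genes of protein synthesis rose together by small amounts. All 36 ribosomal protein genes in the list rose, with a median of 0.49 and a range that began at 0.42, and all 36 were also called with library totals (median 0.31). Among them rpl4 went from 2798 ± 120.3 to 4065 ± 502 CPM, rpsa from 2575 ± 61.2 to 3573 ± 160.5 and rpl13a, a common reference gene in quantitative PCR, from 1667 ± 116 to 2353 ± 364 (SD, n = 4 each, log2 fold changes 0.54, 0.47 and 0.50). The groups did not overlap for 29 of the 36, and rps14 (0.42) was among those whose groups did. Over all genes tested, 13.3% were called higher and 12.8% were higher without overlap. The way the 36 genes got their names made both results likely for them. Of 17 translation factor genes 16 rose (median 0.39), led by the elongation factor gene eef1b2 (log2 fold change 0.56, SE 0.10, adjusted p = 0.000898). All 7 subunits of TRiC, the chaperonin that folds actin and tubulin, rose (median 0.35), cct4 by 0.39 and cct5 by 0.32. With library totals 9 of the 16 translation factors and 2 of the 7 TRiC subunits were called higher, and cct5 was not (adjusted p = 0.168).

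Energy metabolism genes rose as well, against 13.3% called higher among all genes tested and 39.2% among those named from the study's surface table. All 17 oxidative phosphorylation genes did (median 0.41), among them the ATP synthase gene atp5f1b (1809 ± 100.2 to 2298 ± 91.7 CPM, 0.35), cox4i1 (0.43), NDUFS8 (0.79) and uqcrc1 (0.33). Of 12 glycolysis genes 11 rose (median 0.36), with gapdh at 0.38. The glucokinase gene gck was not called. With library totals the called increases were 9 of 17 and 6 of 11, and atp5f1b and uqcrc1 were among those no longer called (adjusted p = 0.0950 and 0.137).

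Antioxidant and detoxification genes rose in 19 of 21 cases, with 2 not called (median 0.55). The shares called higher were 13.3% of all genes tested and 39.2% of surface table genes. The superoxide dismutase gene sod1 went from 151 ± 10.1 to 234 ± 12.7 CPM (SD, n = 4 each, log2 fold change 0.63, SE 0.08, adjusted p = 4.45e-05). Both gstt1b copies (ENSAMXG00000033673 and ENSAMXG00000035085), which encode glutathione transferases, rose by 0.94 and 0.92, mgst3b by 0.92, the glutathione peroxidase gene gpx1b by 0.74 and the ferritin gene fth1a by 0.50. With library totals 16 of these 19 were called.

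Lipid genes moved in both directions. Of 29, 18 rose, 9 fell and 2 were not called (median 0.63), where 13.3% of all genes tested and 39.2% of surface table genes were called higher. The coat protein gene of lipid droplets plin2 (ENSAMXG00000002544) had 38.9, 29.8, 34.6 and 42.3 normalised CPM in surface controls 1 to 4 and 191, 174, 189 and 156 in surface UV-B libraries 1 to 4 (log2 fold change 2.28, SE 0.11, adjusted p = 1.19e-09). The droplet fusion gene cidec (ENSAMXG00000033496) had 0.838, 1.32, 2.26 and 1.21 normalised CPM in surface controls 1 to 4 and 12.3, 10.5, 20.5 and 12.3 in surface UV-B libraries 1 to 4 (log2 fold change 3.24, SE 0.29, adjusted p = 1.16e-06). Both kept their groups apart, and the UV-B libraries of cidec differed by nearly 2-fold. The apolipoprotein gene apoa1a (ENSAMXG00000001789) had 398, 409, 349.8 and 219 normalised CPM in surface controls 1 to 4 and 728, 629, 916 and 879 in surface UV-B libraries 1 to 4 (log2 fold change 1.20, SE 0.16, adjusted p = 6.68e-05), with control 4 the lowest library. Genes for lipid uptake and lipoprotein assembly in the intestine, fabp2 (0.77) and mttp (0.73), were higher. Among the 9 that fell were the fatty acid activating enzyme gene acsl4b (10.1, 19.4, 12.4 and 11.9 normalised CPM in surface controls 1 to 4 and 3.77, 2.79, 3.61 and 3.89 in surface UV-B libraries 1 to 4; log2 fold change -1.94, SE 0.23, adjusted p = 1.94e-05), the adipogenic regulator gene PPARG (-1.31), the LDL receptor gene ldlra (-1.30) and the lipoprotein lipase gene lpl (-0.91). The summed level of 5 liver markers ran from 1309 to 2544 CPM in controls and from 3210 to 4185 CPM after UV-B, with 4 called higher. The 6 intestine markers ran from 831 to 1219 CPM and from 1184 to 2006 CPM, 5 higher and 1 lower. The liver and intestine sums share apoa1a, fabp2, mttp and other members with the lists above, and their part in the list counts was not tested.

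Photoreceptor transcripts rose together. All 24 phototransduction genes with an identifier rose, with log2 fold changes from 0.42 to 0.84 and a median of 0.57, and 22 were called with library totals. Higher calls made up 13.3% of all genes tested and 39.2% of genes named from the study's surface table. The rod opsin gene rho (ENSAMXG00000026346) had 1450.3, 1019, 1447 and 1287 normalised CPM in surface controls 1 to 4 and 2047, 2274, 2119 and 2089 in surface UV-B libraries 1 to 4 (log2 fold change 0.71, SE 0.11, adjusted p = 0.000148). Every UV-B library was above every control, the highest of which stood at 1450 CPM. The long-wave cone opsin gene opn1lw1 went from 1036 ± 108.2 to 1383 ± 84.7 CPM (SD, n = 4 each, 0.42), the cone transducin gene gnat2 rose by 0.56, and the transcription factor genes crx and nrl, which direct photoreceptor fate, by 0.62 and 0.84. The 9 photoreceptor markers belong to the same list, and their sum ran from 2700 to 3641 CPM in controls and from 4633 to 5075 CPM after UV-B. Controls received white light, so the comparison is with light and not with darkness.

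Circadian clock genes with an identifier were mostly higher after UV-B. Of 8, 7 rose and 1 was not called (median 0.52). Another 8 of the 16 listed symbols had no identifier, among them per1b, per3, clocka and nr1d1. Calls higher were made for 13.3% of all genes tested and 39.2% of those named from the study's surface table. In fish, light induces per2 and cry1a, which encode repressors of the circadian feedback loop. The per2 transcript went from 64.0 ± 4.46 to 89.2 ± 4.40 CPM (SD, n = 4 each, log2 fold change 0.48, SE 0.08, adjusted p = 0.000616), and nocta, a rhythmic gene, rose by 0.72. The call of cry1a was weak (log2 fold change 0.24, SE 0.08, adjusted p = 0.0340) and was lost with library totals, with all 14 libraries in the fit and without any of surface controls 1, 2 or 3 or surface UV-B 3 or 4, with adjusted p-values up to 0.600. That of bhlhe40 (0.39) was lost with library totals only (adjusted p = 0.109).

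Named genes of the signalling pathways that pattern the embryo were mostly lower, as were 60.3% of all genes named from the study's surface table. Of all genes tested, 15.4% were called lower, and both shares apply to the Hedgehog, Wnt, Notch, TGF-beta and Hippo counts. The Hedgehog pathway passes its signal from the receptor Patched through Smoothened to the Gli factors. All 11 of its genes with an identifier fell (median -0.90). The factor gene gli2b (ENSAMXG00000029155) had 20.9, 17.5, 16.1 and 19.3 normalised CPM in surface controls 1 to 4 and 7.17, 7.48, 6.34 and 8.37 in surface UV-B libraries 1 to 4 (log2 fold change -1.33, SE 0.15, adjusted p = 1.49e-05). The groups did not overlap for any of the 11 genes, whereas 15.2% of all genes tested were lower without overlap. The way these genes got their names made such a result likely. The co-receptor gene boc went from 107 ± 2.04 to 49.8 ± 2.66 CPM (log2 fold change -1.11, SE 0.08, adjusted p = 9.50e-08), and gli3, gli1, ptch1, smo and disp1 had values of -1.07, -0.94, -0.81, -0.76 and -0.42.

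Of 30 Wnt pathway genes, 28 fell, 1 rose and 1 was not called (median -0.93). The ligand gene wnt5a (ENSAMXG00000040063) had 18.7, 15.3, 15.6 and 11.2 normalised CPM in surface controls 1 to 4 and 3.90, 5.49, 4.10 and 4.36 in surface UV-B libraries 1 to 4 (log2 fold change -1.75, SE 0.20, adjusted p = 1.20e-05). All 4 UV-B libraries were below 6 CPM and all 4 controls above 11 CPM. The ligand genes wnt9b and wnt4 fell by 1.64 and 1.52 on the log2 scale, the feedback gene axin2 by 0.91 and the nuclear effector lef1 by 0.72. The exception was amer2, which encodes a membrane protein that recruits the APC protein (log2 fold change 0.69, SE 0.10, adjusted p = 9.23e-05). In the Notch list 8 of 9 genes fell (median -0.53), among them the ligand gene jag2b (-0.71), and hes6 rose (0.59).

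Of 18 TGF-beta and BMP genes, 17 fell and 1 rose (median -0.89). The receptor gene tgfbr2b (ENSAMXG00000020393) had 39.1, 39.9, 42.0 and 38.9 normalised CPM in surface controls 1 to 4 and 8.30, 9.48, 7.21 and 10.3 in surface UV-B libraries 1 to 4 (log2 fold change -2.18, SE 0.13, adjusted p = 4.96e-09). Both groups were tight, and every control stood more than 3-fold above every UV-B library. Ligand genes tgfb2 (-1.55) and tgfb1a (-1.53) and thbs1a (-1.49), which encodes an activator of latent TGF-beta, were lower. Of 17 Hippo pathway genes, 16 fell and ccn1 rose (median -0.98). Those that fell include the kinase gene lats2 (-1.17), amotl2b, which encodes a junctional inhibitor of the coactivator Yap (-1.37), and the protocadherin genes fat2 (-1.73) and fat1a (-0.42).

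Receptor genes followed the same direction, against 15.4% called lower among all genes tested and 60.3% among those named from the study's surface table. Of 22 receptor tyrosine kinase genes, 21 fell and 1 was not called (median -0.84), among them met (-1.45), egfra (-1.27), fgfr2 (-0.87), FGFR1 (-0.82) and the pigment cell receptor gene kita (-0.86). Of 19 neuropilin, plexin and semaphorin genes, which guide axons and vessels, 18 fell and 1 was not called (median -0.76). The neuropilin gene nrp1a (ENSAMXG00000019057) had 174, 178, 207 and 205 normalised CPM in surface controls 1 to 4 and 107, 109, 105 and 85.9 in surface UV-B libraries 1 to 4 (log2 fold change -0.91, SE 0.10, adjusted p = 6.66e-06), with no overlap. The semaphorin gene sema6e fell by 1.17 on the log2 scale, nrp2a by 1.02, plxna2 by 0.52 and PLXNA1 by 0.51.

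Progenitor factors of muscle and limb had the lowest list median. All 21 fell (median -1.14), where 15.4% of all genes tested and 60.3% of genes named from the study's surface table were called lower. Members got their names largely through significance in these libraries, so the order of list medians is a description. The early myogenic factor gene myf5 (ENSAMXG00000000428) had 9.09, 13.6, 11.5 and 11.6 normalised CPM in surface controls 1 to 4 and 3.14, 1.30, 1.74 and 2.48 in surface UV-B libraries 1 to 4 (log2 fold change -2.42, SE 0.25, adjusted p = 5.56e-06). The lowest control was more than 2-fold above the highest UV-B library. Lower levels were also found for eya1 (-1.84), eya2 (-1.71) and meox1 (-1.62), which act in somite and muscle progenitors, for PAX3 (-1.11) and pax7a (-0.90), which mark muscle stem cells and neural crest, and for the later factor myog (-0.59). The summed level of 8 markers of differentiated skeletal muscle ran from 15754 to 17999 CPM in controls and from 20152 to 22684 CPM after UV-B. That sum was mostly 1 marker with a mean of 13336 CPM. Of the 8, 4 were called higher and 4 lower, with a median log2 fold change of -0.16, so the markers had no common direction. The heart marker myl7 ran from 3.94 to 9.84 CPM and from 13.2 to 22.9 CPM, and was called higher.

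Epidermal genes fell in 22 of 25 cases and rose in 3 (median -1.04). Lower calls made up 15.4% of all genes tested and 60.3% of genes named from the study's surface table. The grainyhead factor gene grhl1 (ENSAMXG00000017898), a regulator of the skin barrier, had 50.4, 39.5, 42.7 and 35.5 normalised CPM in surface controls 1 to 4 and 14.2, 12.6, 7.59 and 9.43 in surface UV-B libraries 1 to 4 (log2 fold change -1.93, SE 0.17, adjusted p = 7.97e-07). The epithelial ETS factor genes elf3 (ENSAMXG00000008850) and ehf fell further. Levels of elf3 were 96.2, 49.3, 63.2 and 39.2 normalised CPM in surface controls 1 to 4 and 16.7, 12.2, 13.8 and 6.72 in surface UV-B libraries 1 to 4 (log2 fold change -2.32, SE 0.26, adjusted p = 1.12e-05). Its controls spread over more than 2-fold and still stood above every UV-B library. Levels of ehf (ENSAMXG00000031821) were 3.23, 5.37, 5.83 and 2.60 normalised CPM in surface controls 1 to 4 and 0.503, 0.698, 0.622 and 0.707 in surface UV-B libraries 1 to 4 (log2 fold change -2.72, SE 0.38, adjusted p = 8.98e-05). The integrin gene itga6b, which anchors basal cells, fell by 1.57 on the log2 scale. The 3 that rose were the hyaluronan synthase gene has1, the keratin gene krt18a.1 (0.64) and the laminin gene lama3 (0.50), whose groups overlapped and whose call was lost with library totals (adjusted p = 0.0774). Levels of has1 (ENSAMXG00000016438) were 4.19, 2.54, 2.54 and 4.32 normalised CPM in surface controls 1 to 4 and 17.9, 15.0, 25.5 and 16.7 in surface UV-B libraries 1 to 4 (log2 fold change 2.46, SE 0.22, adjusted p = 1.43e-06). The 5 epidermis markers, all of them members of this list, summed to between 290 and 361 CPM in controls and between 140 and 206 CPM after UV-B. The 6 neuron markers summed to between 899 and 1192 CPM in controls and between 1197 and 1262 CPM after UV-B, 2 of them called higher and 4 lower. Their median log2 fold change was -0.61, and the most abundant had a mean of 633 CPM, so their sum does not give a common direction. Averaged over both groups, no marker of any of the 8 tissues was at 0, the lowest mean being 1.13 CPM for an immune marker. Single UV-B libraries may still lie below what 3 counts amount to.

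Other genes with the highest and lowest fold changes under the naming rule belonged to no list. HS3ST1 (ENSAMXG00000039042), which encodes a sulfotransferase of heparan sulfate, had 5.98, 5.68, 6.51 and 5.33 normalised CPM in surface controls 1 to 4 and 44.0, 37.2, 57.3 and 36.4 in surface UV-B libraries 1 to 4 (log2 fold change 2.89, SE 0.16, adjusted p = 3.54e-09). Levels of gcnt3 (ENSAMXG00000000367), which encodes a branching enzyme of mucin-type glycans, were 6.94, 8.82, 6.51 and 8.44 normalised CPM in surface controls 1 to 4 and 45.5, 30.6, 42.0 and 36.4 in surface UV-B libraries 1 to 4 (log2 fold change 2.33, SE 0.15, adjusted p = 2.15e-08). Both rose in every UV-B library. The NADPH oxidase gene nox1 (ENSAMXG00000021484) had 21.3, 12.6, 12.8 and 8.06 normalised CPM in surface controls 1 to 4 and 2.64, 3.59, 2.86 and 0.707 in surface UV-B libraries 1 to 4 (log2 fold change -2.44, SE 0.35, adjusted p = 9.94e-05), with UV-B library 4 the lowest. The gene si:ch73-335l21.4 rose by 2.98, whereas card14, which encodes a scaffold of NF-kB signalling in skin (-2.24), the flippase gene atp8b1 (-2.01), the receptor kinase gene grk5 (-1.99), zgc:113279 (-2.89) and si:ch73-74h11.1 (-2.43) were lower.

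Whether the surface response of these genes differed from that of cave larvae was tested in a single fit of all 14 libraries. The Pachón libraries were cave control 2, 3 and 4 and cave UV-B 1, 2 and 4. These groups were smaller than the surface groups, so a call was harder to reach in cave larvae. Of 16104 genes, 596 (3.7%) passed for the difference of the responses by edgeR's interaction test. Of these, 227 had cave minus surface above 0 and 369 below. Among the 156 genes whose values are used here, 33 passed. Some list genes were named from the cave table alone, which followed the study's significance in cave larvae. In the AP-1, other early response, heat shock, integrated stress response and NF-kB and inflammation lists they number 2, 3, 1, 7 and 4. Naming favours a larger cave response for them. Those that passed were npas4a, bag3, trib3, slc3a2b, slc38a2 and all 4 of the NF-kB and inflammation genes. The 4 were il1b (ENSAMXG00000031873), myd88, ptgs2b and socs3a. Part of the counts that passed in these lists thus came through naming. The circadian clock, Wnt and Notch lists held 2, 2 and 1 genes named from the cave table alone. Most named genes came from the surface table, which followed significance in surface larvae and favours a larger surface response. That bias lies below 0 in cave minus surface for genes that rose and above 0 for genes that fell. The directions below are therefore descriptions. In 4 of 9 AP-1 subunits, 7 of 19 other early response genes, 3 of 14 heat shock genes and 6 of 19 integrated stress response genes the difference passed, each time with cave minus surface above 0, and the others did not pass, among them junbb (0.39, adjusted p = 0.283), egr1 (0.20, adjusted p = 0.679) and hspa1b (1.34, adjusted p = 0.0545). In the circadian clock (3 of 8), phototransduction (3 of 24), Wnt (3 of 30) and Notch (2 of 9) lists every passing difference lay below 0. The log2 response was smaller in surface than in cave larvae by 1.68 for fosab, 1.81 for fosl1a, 1.44 for cebpb, 1.58 for hspb11 and 1.10 for chac1. Cave minus surface was below 0 for gcnt3, per2 and cry1a, at -1.05, -1.17 and -0.99. The gcnt3 transcript rose in both populations, and more in surface larvae. For per2 and cry1a the difference exceeded the surface rise in size, which places the cave change below 0. Of the NF-kB and inflammation list 12 of 30 passed, and of the epidermal list 2 of 25. From these lists bcl3, nfkbiz, elf3 and ehf fell in surface larvae and were not called in cave larvae, with differences of 2.41, 1.25, 1.88 and 2.61. The difference for cpdp, -0.47, was not called (adjusted p = 0.106), and neither was that for cdkn1a, -0.35 (adjusted p = 0.377).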

How the data were processed

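RNA sequencing was carried out on poly-A RNA from whole-body pools. The authors deposited raw gene counts, made with STAR on A. mexicanus genome version 2 and the annotation of Ensembl release 108. The STAR version, strand setting and treatment of reads that fit several places are not given in the sources used here. That makes the values of near-identical copies and of genes that overlap or lie antisense to another uncertain. The deposited totals were below those of a count sheet in the study's supplement for the same libraries, so a part of the reads may be missing from them, and totals and CPM describe the deposited counts. Of 19076 genes, 650 had no count in the 8 surface libraries. There were 0 columns of other samples.

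Counts entered edgeR 4.0.16 (R 4.3.3, quasi-likelihood test, TMM scaling, filterByExpr, treatment as the only term, Benjamini-Hochberg over all genes tested, adjusted p under 0.05). DESeq2 1.42.0, the tool of the study, and voom (limma 3.58.1) served as alternatives. The SE of a log2 fold change was its size divided by the square root of F. The difference of responses was the population by treatment interaction over 14 libraries. Exact permutation tests, two-sided, were used for library measures. Replicates of a group differed beyond sampling noise (chi-square per degree of freedom from 5.01 to 18.5), so each was counted as a sample, although this does not exclude a repeat library of the same pool. The sources do not say whether pools came from separate clutches, so p-values measure the spread between these pools. On simulated data the surface test recovered 92% of 2-fold and 100% of 4-fold changes (15507 genes), and the interaction test 77% and 100% (15957 genes). False calls numbered 10 and 14. Only 200 genes were changed, all averaging at least 50 counts, in balanced directions and with a spread set by level alone. Recovery for genes of low count, or under a response as broad as the one found here, was not tested.

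The members and gene lists were chosen with earlier results of these data known. The naming rule took the 12 called genes of highest and the 12 of lowest log2 fold change that had a symbol, averaged 50 counts or more and did not overlap between groups, all tested members of the gene lists, and cpdp, ddb2 and rpl13a. Examples within a list were picked after their values were seen, and some genes counted in the lists are not reported by name here. The columns of the authors' own comparisons in the supplementary tables (fold changes and p-values) were not used. The reference gene table is of another assembly, matched 0 identifiers and gave no names, coordinates or sequences. Alternatives were other scalings, filters and tools, the fit of 14 libraries, a replicate block, a stricter threshold and the omission of single libraries.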

Additional observations from a re-analysis of the deposited data

Results flagged for a closer look

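In 90 groups of 4 libraries (levels of genes described per library and the marker sums), 3 held a library far from the other 3, by a rule that chance meets in about 1 in 20 groups. The btg2 level of surface control 4 was 247 CPM against 214 to 217 in the other controls. The heart marker sum of surface control 4 was 3.94 CPM against 8.86 to 9.84. The intestine marker sum of surface UV-B 2 was 1184 CPM against 1914 to 2006.

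The response differed between cave and surface larvae for 33 of the 156 genes, by the edgeR interaction test. Values are cave minus surface log2 fold changes. Among them trib3, myd88 and il1b (ENSAMXG00000031873) were named from the cave table alone, which favours a larger cave response. Naming from the surface table favours a larger surface response. Among early response genes the differences were 1.68 for fosab, 1.81 for fosl1a, 1.09 for junba, 0.67 for jund, 1.44 for cebpb, 1.07 for ier2a, 0.85 for dusp1, 0.61 for ccn1 and 1.20 for NR4A1. Among stress genes they were 1.58 for hspb11, 1.94 for hspb9, 1.10 for chac1, 1.17 for atf5b, 0.90 for trib3, 0.85 for sesn2 and 0.67 for gadd45ba. Inflammatory genes had values of 4.59 for il1b (ENSAMXG00000031873), 2.38 for il1b (ENSAMXG00000035729), 0.99 for myd88, 1.25 for nfkbiz, 2.41 for bcl3, 1.18 for ccl20b, 3.91 for tnip2 and 1.50 for card14. The tnip2 gene averaged 17.25 counts in surface libraries, its difference had an SE of 0.89, and a fit of cave libraries alone did not test it. The remaining values were 1.88 for elf3, 2.61 for ehf, 1.72 for acsl4b, 1.86 for si:ch73-74h11.1, -1.05 for gcnt3, -0.57 for lef1, -0.66 for nrp2a, -1.17 for per2 and -0.99 for cry1a.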

How the results depend on the processing

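The total of 4464 surface calls moved by more than 1.5-fold only with the threshold of 0.01, which by construction passes fewer genes (2474). Scaling to library totals gave 800 higher and 4174 lower, each a move of more than 1.5-fold. Only 3192 of the 4464 genes were also called with library totals, in either direction, and 3220 without surface control 3. Without single libraries the count ran from 3286 (without surface control 3) to 4630 (without surface control 4), and DESeq2 gave 4581. Deviations of same-numbered libraries had correlations from -0.02 to 0.10, within the range of differently numbered ones (-0.13 to 0.10). No pairing by number was therefore detected, although such weak correlations cannot exclude a shared clutch or batch. The replicate block gave 4486 surface calls and 456 for the difference of responses.

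The difference of responses (596 genes, 227 higher and 369 lower in cavefish) depended more on settings. DESeq2 gave 939 (358 and 581), and library totals gave 128 higher and 634 lower. Without single libraries it ran from 326 to 819, with 128 to 369 higher and 198 to 450 lower. The total moved by over 1.5-fold without cave UV-B 4 (326), cave control 3 (381), surface control 1 (383), surface control 2 (392) or surface UV-B 4 (394). The cause was not tested, and the differences of single genes were not followed through these settings.

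Of 2642 values of the 156 genes under alternatives, 2605 kept their direction and side of the threshold, 35 lost the call, 1 gained it and 1 changed sign. The last was the uncalled il1b copy ENSAMXG00000031873 without surface control 4 and surface UV-B 2 (-0.011). Of the genes, 138 kept both under every alternative. The 156 were mostly leading genes or examples picked after their values were seen, which made kept calls likely. These counts therefore support no call. The effect of depth on the calls was not tested.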

Other observations

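Among genes with no symbol in the sources used here, 2 that rose and 2 that fell had the highest and lowest log2 fold changes at a mean of at least 50 counts. They were not singled out by the naming rule and were chosen after their values were seen. ENSAMXG00000042232 went from 5.24 ± 1.71 to 33.2 ± 4.21 normalised CPM (SD, n = 4 each) and had a log2 fold change of 2.63. ENSAMXG00000018794 went from 4.53 ± 0.52 to 24.2 ± 5.52 normalised CPM and had a log2 fold change of 2.41. ENSAMXG00000030906 fell from 15.0 ± 5.43 to 1.33 ± 0.39 normalised CPM, and ENSAMXG00000011037 from 15.3 ± 2.66 to 2.87 ± 0.030 normalised CPM. The edgeR adjusted p-values were 7.02e-08, 1.50e-07, 6.40e-07 and 2.79e-07 in the same order.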
